A study of Danio rerio with 4 samples.

Results

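Annexins and S100 proteins are calcium-binding families that act at cell membranes. Annexins bind acidic phospholipids when calcium rises, and take part in membrane repair, vesicle traffic and inflammation. S100 proteins are small dimers with EF-hand calcium sites, and several mammalian S100 dimers bind the N-terminal tail of an annexin, as S100A10 does with annexin A2. The genes described here were chosen by name from the table of all genes, as symbols that start with *anxa* and a digit or *s100* and a letter, together with *icn* and *icn2*, the ictacalcin genes of the S100 family. This rule gave 29 of 19143 genes, of which 16 encode annexins and 13 encode S100 proteins.

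RNA-seq was carried out on whole zebrafish larvae at 4 dpf from *nlrc3l* st73 intercrosses. Each genotype was represented by 2 pools, 1 of 10 and 1 of 12 larvae, and the genotypes were homozygous *nlrc3l* mutants, deficient in this NOD-like receptor, and their siblings, heterozygous or wild-type at the locus. Before RNA extraction larvae of both groups had been scored with neutral red, a vital dye for microglia, which the study's staining method applies in water with PTU, an inhibitor of pigment formation. Stained microglia had to be missing in a mutant and normal in a sibling, so they were part of how the groups were formed. The study also checked the genotypes with a PCR and restriction enzyme assay before libraries were made. Each library averages over its larvae and over every tissue.

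The value used for each gene is the authors' mean normalized count, averaged over all 4 libraries of both genotypes. It describes how many sequenced fragments a gene received on average over these libraries. It need not match any single library, and it carries no error, since values per library were not analysed here. Mutants and siblings are therefore not set against each other below, and whether any annexin or S100 gene differed between them is not analysed here. Counts also grow with transcript length, for which no scaling was possible, so the order of genes below is an order of fragments and not of transcripts per cell.

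The lowest member, *s100z*, had a mean normalized count of 32.7, against 9.18 for the lowest gene of the table. All 29 had a value because members were chosen from the rows of the table. No gene of the table had less than 9.18. The median, quartile and percents over all genes therefore leave out any gene below that value. As a family the annexins had a median of 831 mean normalized counts per gene and the S100 genes 500.1, against 126 over all genes. Neither median was scaled by length, and S100 proteins are small, so the order of the families is one of fragments only. Of the 16 annexins 15 lay above the median of all genes, and so did 10 of the 13 S100 genes. The upper quartile of all genes, 317 mean normalized counts, was passed by 12 annexins and 9 S100 genes. A mean of 1000 or more was reached by 7 annexins and 3 S100 genes, or 34.5% of the members, against 6.99% of all genes. Together the members took 0.317% of all normalized counts, 0.182% in annexins and 0.135% in S100 genes. Markers from 9 lists of tissues and cell types were read, and all 29 had a row. Having a row does not check the whole-larva label. Levels differed within lists, from 206 for *cryaa* to 4415 for *crygm2d1* in lens. In red cells they ran from 164 for *alas2* to 3813 for *hbae3*. Epidermal markers had mean normalized counts from 623 for *tp63* to 69336 for *krt4*, and muscle markers from 9730 for *myhz2* to 98792 for *actc1b*. Neuronal markers ran from 1285 for *gap43* to 2903 for *snap25a*. Liver markers ran from 833 to 28669, and those of notochord and cartilage from 1928 to 11502. Macrophage markers, *mpeg1.1*, *csf1ra* and *mfap4*, ranged from 14.6 to 49.4 and the neutrophil markers *mpx* and *lyz* from 186 to 246. These are means over mutant pools, sorted for missing microglia, and sibling pools together. In whole larvae, fewer cells of a type and less RNA per cell cannot be told apart.

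**Figure D1:**
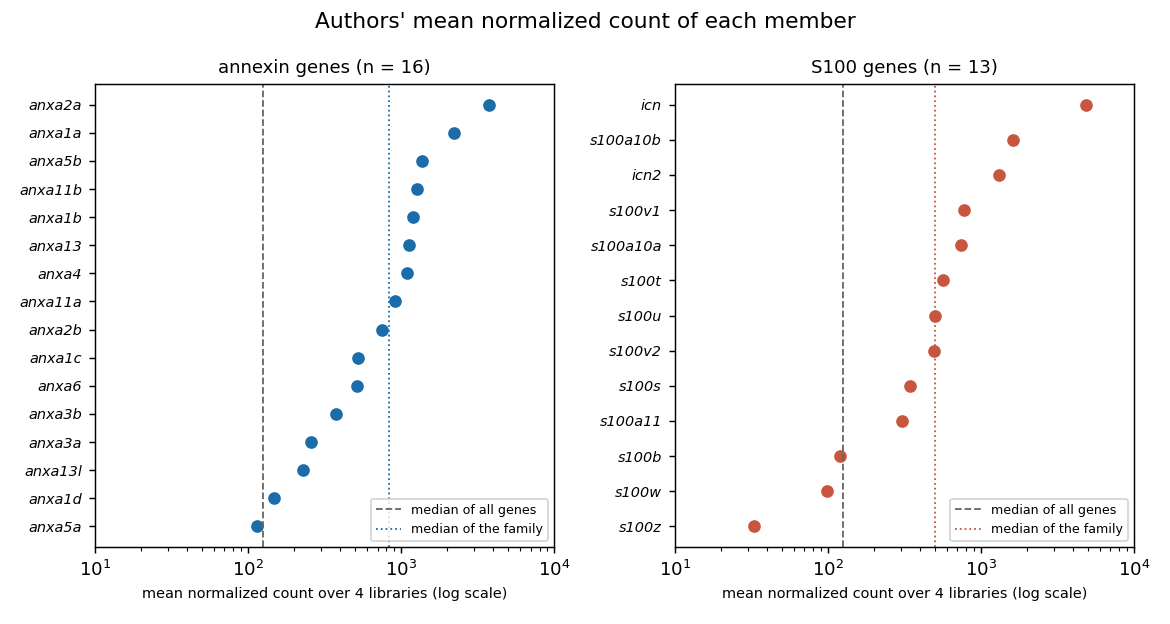
The authors' mean normalized count over 4 libraries of each annexin (left, 16 genes) and S100 gene (right, 13 genes), 1 point per gene on a log axis, with no error bars. The dashed line is the median of all genes, 126, and the dotted line the family's median. Annexins ran from 114 to 3765 and S100 genes from 32.7 to 4874, and the gene named *ANXA1 (1 of many)* in the table is drawn as *anxa1d*.

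Among the annexins, *anxa2a* (ENSDARG00000003216) received the most fragments, with a mean normalized count of 3765, above those of 98.4% of all genes. It encodes a form of annexin A2, which in mammals joins S100A10 in a complex that links membranes to actin and binds plasminogen. Its duplicate *anxa2b* had 749. The partner genes were also well covered, with 1614 for *s100a10b* and 747 for *s100a10a*. In mammals S100A10 is an unusual S100 protein that no longer binds calcium. Both S100A10 genes and both annexin A2 genes lay above the upper quartile of all genes, as did 72.4% of all members.

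Annexin A1 is known in mammals as a glucocorticoid-induced protein that limits inflammation through formyl peptide receptors. Zebrafish carry several copies of its gene, and 4 had a row. Mean normalized counts were 2206 for *anxa1a*, 1192 for *anxa1b*, 519 for *anxa1c* and 148 for ENSDARG00000098481, which the table calls *ANXA1 (1 of many)* and a current gene table calls *anxa1d*. These copies shared 25.6% of all annexin counts, close to the 23.8% of *anxa2a* alone. How reads that match more than 1 copy were counted is not given in the sources used here, so the division among copies is uncertain. Annexin A1 binds S100A11 in mammals, and *s100a11* had a mean normalized count of 307, just under the upper quartile of all genes. The formyl peptide receptor gene *fpr1* had 36.3.

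The remaining annexins fell into duplicate pairs and single genes. Annexin A5 binds phosphatidylserine and is widely used as a label of dying cells. Its duplicates stood furthest apart, with 1373 mean normalized counts for *anxa5b* and 114 for *anxa5a*, the lowest of the annexins and the only annexin under the median of all genes. Annexin A11, which ties RNA granules to lysosomes in mammalian neurons, was covered by both copies, with 1275 for *anxa11b* and 913 for *anxa11a*. The annexin A3 genes had 377 for *anxa3b* and 259 for *anxa3a*. For these pairs the values lay nearer to each other than those of *anxa5a* and *anxa5b*.

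Annexin A13 is a protein of the intestinal epithelium in mammals. Its zebrafish gene *anxa13* had a mean normalized count of 1128 and the related *anxa13l* had 227. The gene of annexin A4, a protein of epithelia in mammals, had 1088. The gene of annexin A6, which carries a doubled annexin core, had 517. The 5 annexin genes with most fragments, *anxa2a*, *anxa1a*, *anxa5b*, *anxa11b* and *anxa1b*, held 61.9% of the annexin sum. The first 3 of them held 46.3%.

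**Figure D2:**
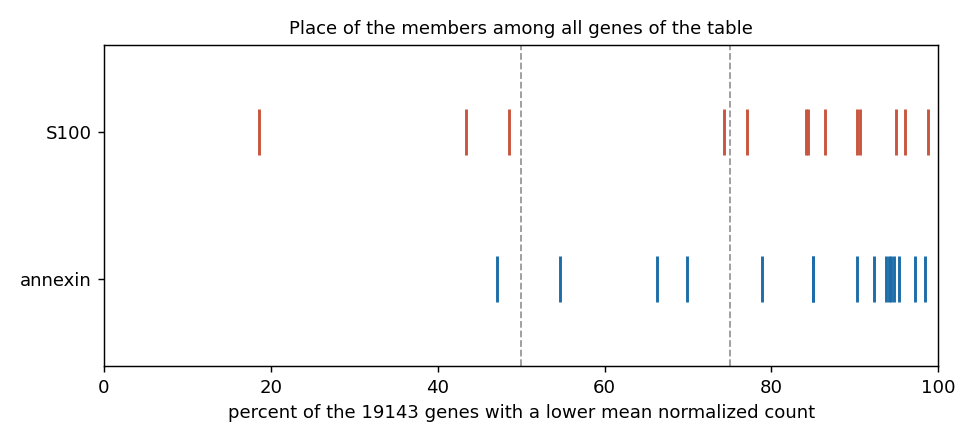
The place of each member among the 19143 genes of the table, as the percent of genes with a lower mean normalized count, with 1 tick per gene. Dashed lines mark 50% and 75%. Annexins lay between 47.1% and 98.4% and S100 genes between 18.6% and 98.8%.

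The S100 counts were more concentrated, with 79.1% in the 5 highest of 13 genes, against 61.9% in the 5 highest of 16 annexins. Ictacalcin, an S100 protein of fish skin, is encoded by *icn* (ENSDARG00000009978), which had a mean normalized count of 4874, more than any annexin. This single gene held 41.3% of the S100 sum, and *icn* with *s100a10b* and *icn2* held 66.2%. The second ictacalcin gene, *icn2*, had 1323. The 6 epidermis markers in the same larvae ranged from 623 for *tp63*, a transcription factor of basal epidermis, to 69336 for the keratin gene *krt4*. Whether the ictacalcin reads came from skin was not tested.

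Of the other S100 genes, *s100v1* had a mean normalized count of 778, *s100t* 565, *s100u* 500.1, *s100v2* 496 and *s100s* 346. In zebrafish *s100t* is known from sensory hair cells. The least covered were *s100b*, whose mammalian protein marks astrocytes and Schwann cells, at 120.0, *s100w* at 98.5 and *s100z* at 32.7. These were the only S100 genes under the median of all genes, and *s100z* was the only member under 50. The range within the S100 family, from *s100z* to *icn*, was 149-fold in fragments, and within the annexins, from *anxa5a* to *anxa2a*, it was 33.2-fold.

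Members of both families lie side by side in the genome. By symbol all 29 were placed in the RefSeq annotation of GRCz12tu. Because the counts were made on GRCz10, this annotation was used here only for gene order, symbols and the presence of a protein. The 13 S100 genes lay on 4 chromosomes and the 16 annexins on 10. With no other coding gene between them, *s100a10b*, *s100w*, *icn* and *icn2* followed each other, as did *s100a11*, *s100u* and *s100s* on a different chromosome. The annexin genes *anxa1d*, *anxa1c* and *anxa1b* did the same, while *anxa1a* lay elsewhere on their chromosome. In all, 7 of 13 S100 genes and 3 of 16 annexins lay next to another of the 29 members of their own family. Genes of the families outside the 29 were not counted as such neighbours. Counts within a run could differ widely. In the first run *s100w*, with 98.5, stood between *s100a10b* and *icn*, with 1614 and 4874. In the run of *s100a11*, *s100u* and *s100s* the values were 307, 500.1 and 346.

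**Figure D3:**
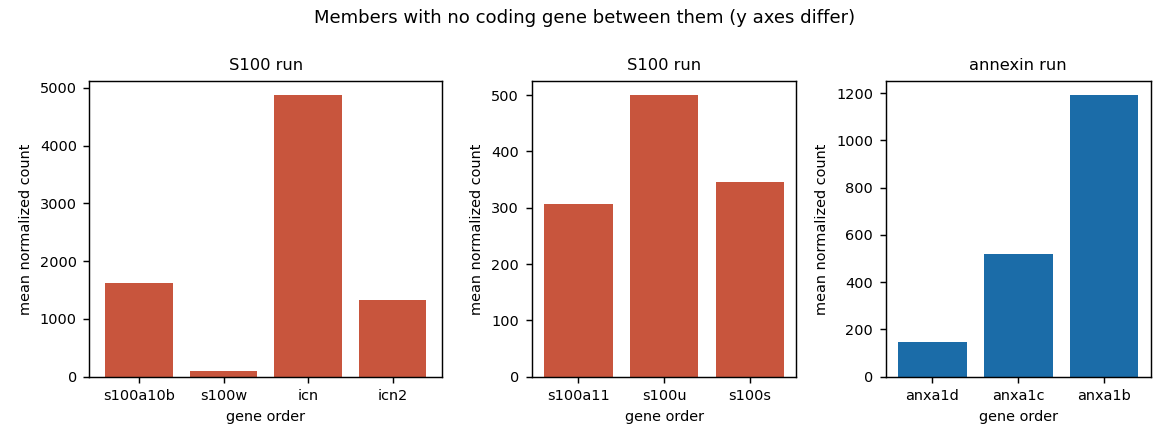
The authors' mean normalized count of members that follow each other with no other coding gene between them, in their order on the chromosome, 1 bar per gene from 0 and with a scale of its own in each panel. The bars of *s100a10b*, *s100w*, *icn* and *icn2* differ most, from 98.5 to 4874, and those of *s100a11*, *s100u* and *s100s* least, from 307 to 500.1.

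In a list drawn up as binding partners of annexins or of S100 proteins, 13 of 14 genes had a row, all but *trim72*. Their median was 398 mean normalized counts. The highest was *ahnak*, a very large scaffold protein that binds the annexin A2 complex, at 2803, and the lowest was *plaua*, a urokinase-type plasminogen activator, at 15.0. Plasminogen itself, *plg*, a liver product that annexin A2 binds, had 1015, and its tissue-type activator *plat* had 40.3. Dysferlin, which works with annexins in membrane repair of muscle, had 142 for *dysf*. Sorcin, a partner of annexin A7, had 669 for *sri*, but none of the 16 annexins was named as annexin A7. The annexin A11 partner *pdcd6* had 260.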

How the data were processed

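Paired-end RNA-seq reads of 4 libraries from pools of whole larvae were processed by the authors, who used FastQC, Trimmomatic and HISAT2, and per the submitters' processing notes featureCounts (Subread 1.5.2), DESeq2 and R 3.3.1 with GRCz10. The annotation release and the use of strand in counting are not given in the sources used here. The values used are a signal that the authors deposited, the mean over all 4 libraries of counts divided by DESeq2 size factors. The 19143 rows sum to 8721330 per library. The remaining columns, and a second table of selected genes, hold the authors' own log2 fold changes, standard errors, statistics and p-values, and were not used. The planned comparison of genotypes needed counts per library, which none of these columns held, so it could not be run. Columns of single samples left out numbered 0.

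Members and lists were chosen with earlier results of these data known. Every member in both families was named. Of the binding partners the highest and the lowest were named by rule. The other partners that are named were picked from their list. For each list of whole-larva markers the lowest and the highest value were given. Calmodulins and parvalbumins served as other EF-hand lists. Medians, sums and percent of genes below were computed. The median, the geometric mean and the percent below were tested on simulated data, and sums were not. No test was run, since genes are not replicates. Alternatives were a minimum of 50, leaving out the highest members or the ictacalcin genes, geometric means and the upper quartile. All 29 members were matched to RefSeq names, by their own symbol or, failing that, by the name in a current gene table. That gene table gave *anxa11a* and *anxa11b* the same name, *ANXA11*, and named *anxa1a*, *anxa2a* and *anxa3a* without the copy letter. Of 32 RefSeq symbols of the families, 3 had no matching row, *anxa14*, *s100a1* and *s100p*, and these genes were not analysed here. Calculations were made in Python 3.11.15 with pandas 2.3.3, and plots with matplotlib 3.10.9.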

Additional observations from a re-analysis of the deposited data

How the results depend on the processing

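The family medians of 831 and 500.1 mean normalized counts moved by less than 1.5 times under a minimum of 50, without the highest member and as geometric means, from 665 to 831 for annexins and from 454 to 533 for S100 genes, where leaving out *icn* and *icn2* gave 496. The annexin sum was 1.34 times the S100 sum in counts, 1.74 without the highest member of each family and 1.35 with a minimum of 50, but 2.83 without *icn* and *icn2*, a pair of genes that holds 52.5% of the S100 counts. Against the median of all genes 86.2% of members were higher, and 72.4% against the upper quartile. The minimum of 50 left out no annexin, so it could not change the annexin median, and of the S100 genes it left out only *s100z*. Keeping only members with a RefSeq protein left out none, and the medians stayed as they were. The family medians and the ratio of sums had been planned per coding kb. Values per coding or transcript length were not run, because no such lengths were used here, and the ratio above is for that reason unscaled. No paired analysis was possible because the columns held no values per library, and the same holds for leaving out a library, for edgeR and for other scalings. Neither the depth of each library nor the spread between libraries was analysed here, so no value has an error.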

Other observations

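Other EF-hand families of the same larvae were read as background for the S100 genes. The 6 calmodulin genes had a median of 2848 mean normalized counts, from 1087 to 6880. Of the S100 genes *icn*, *s100a10b* and *icn2*, at 4874, 1614 and 1323, lay within that range, and the other 10 lay below it. The symbol *calm3a* named both the lowest of the calmodulin genes, at 1087, and another at 3644. The next lowest, *calm2a*, had 1512, above *icn2*. Of the 9 parvalbumin genes, which encode calcium buffers of fast muscle and neurons, *pvalb2* and *pvalb1* had 68632 and 47731, and the other 7 ranged from 296 to 4875. The parvalbumin median was 736, beside 500.1 for the S100 genes. These values are not scaled by length, and no comparison between families was tested.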
